A study of Vigna subterranea with 10 samples.

Results

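Heat shock proteins and chaperones were followed in leaflets of bambara groundnut (Vigna subterranea), an African grain legume, as plants were moved to lower temperatures. The members were the probe sets of the Affymetrix Soybean GeneChip whose single gene symbol begins, in either case, with HSP, HSF, HSC, BIP, DNAJ, CPN, CCT-, CLP or PDI, with 1 further probe set added by its identifier, which the study described as HSP21. The symbol found 41 probe sets, so that 42 of the 36578 soybean probe sets in the table were members, and they carried 23 gene names. They comprised 7 probe sets of small heat shock proteins, 3 of BiP, 9 of HSP90, 1 of a cytosolic chaperonin subunit, 7 of protein disulfide isomerases and 15 of heat shock factors. No symbol began with DNAJ, CPN, CLP or HSC, and 3 probe sets that named HSP26-A beside another gene were left out.

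All plants were of genotype S19-3, and nothing but temperature is named in the labels as a treatment. A fully expanded leaflet was taken from each of 3 plants at 27 °C (optimal), again at 23 °C (sub-optimal) and again at 18 °C (very sub-optimal), giving 3 arrays per temperature and 9 in all. The comparisons ask which of these transcripts differ at each lower temperature. Since the plants passed through the temperatures in 1 order, temperature, leaf age, time and earlier sampling cannot be told apart.

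Chaperones bind proteins that are not yet folded or have lost their fold, keep them from aggregating and help them to reach the folded state. Small heat shock proteins hold unfolding proteins without using ATP, while the HSP70, HSP90 and chaperonin families run ATP-driven folding cycles. In the endoplasmic reticulum, BiP and the protein disulfide isomerases fold proteins on the secretory route. Heat shock factors are transcription factors that bind the promoters of many heat shock protein genes. In plants the small heat shock proteins are best known from heat, and several chaperone genes also respond to chilling.

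Values are log2 expression values made by the authors with RMA, and every difference is given in these log2 units, the lower temperature minus the higher one unless stated otherwise. Array medians lay between 7.89 and 8.11, and averaged over arrays the median was shifted at 18 °C by -0.12 relative to 27 °C and by -0.11 relative to 23 °C. Some 1312 values in the table exceeded 16 and 1434 lay below 0, so a step beside RMA is unknown and a difference may not equal a true log2 fold change. Where a gene name had several probe sets, they are told apart by their mean log2 value over the 9 arrays, which is given as a guide to precision and is not compared between genes, and their identifiers head the panels of the plots. Replicates scattered less where the signal was stronger. The median SD of all probe sets was 1.48 at a mean of 6 to 8 and 0.337 at a mean of 10 to 12, and the members' was 1.54 and 0.340. Only 13 members had a mean of at least 10 over the 9 arrays, as did 7017 of all probe sets (19.2%), and the other 29 members had a lower mean. Leaf markers were sought by RBCS, RCA, CAB, LHC, PSA and PSB symbols, and the 14 found were probe sets of PSAD, CAB3, RCA14, RCA11 and RCABETA. Of these leaf markers 7 of 14 had a mean of at least 10, the highest at 18.31. None of 4 nodule markers did (highest 6.09), whereas 3 of 20 seed markers did, with GY1 at 11.81 and 2 probe sets of KTI-3 at 10.76 and 10.33. At 27 °C, 23 °C and 18 °C the median of the leaf markers was 10.26, 10.34 and 9.55 and that of the seed markers 7.19, 6.78 and 6.14. In the comparison of 18 °C with 27 °C 1 leaf marker fell and 12 of the 14 had a negative difference (median -0.71), no seed marker passed in any comparison, and the part of these in the results was not tested. In whole leaflets, fewer cells of a type and less RNA per cell cannot be told apart.

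Few members moved, and those that did came from 3 classes. Calls were made at an adjusted p under 0.05 (Benjamini-Hochberg over all 36578 probe sets, two-sided) in a limma fit whose expected variance depends on the mean level, called the variance-trend fit. The constant-prior fit is limma with 1 expected variance for all probe sets. The methods' t-test is the unmoderated test that the study names, run here without the study's filter to probe sets called present on all 9 arrays. At 23 °C against 27 °C, 1 member (2.38% of 42) rose and none fell, beside 284 of all probe sets (0.776%). At 18 °C against 27 °C, 1 rose and 1 fell (4.76%), beside 778 of all probe sets (2.13%). At 18 °C against 23 °C, 2 rose and none fell (4.76%), beside 345 of all probe sets (0.943%). The first and the last comparison share the 23 °C arrays, and both comparisons with 27 °C share the 27 °C arrays. The risers were HSP21, the chaperonin subunit CCT-D and the disulfide isomerase PDIL-2, and the member that fell was the small heat shock protein HSP17.5-E. The study had described HSP21, CCT-D and PDIL-2 among the probe sets it picked as changed on these arrays, so these are not independent evidence, and without them the other 39 members held 0, 1 and 0 calls in the 3 comparisons (4, 7 and 8 at an unadjusted p under 0.05). The constant-prior limma fit and the methods' t-test called 0 members in each comparison, and both called few of all 36578 probe sets. In the 3 comparisons these were 1, 38 and 2 in the constant-prior fit and 1, 0 and 3 in the t-test. Of the 42 members 4, 6 and 9 had an unadjusted p under 0.05 in the constant-prior fit and 4, 9 and 9 in that t-test. In the variance-trend fit 7, 9 and 11 of the 42 did, beside 3445, 4706 and 3823 of all 36578 probe sets. The counts over all probe sets at an unadjusted p under 0.05 were 2813, 3877 and 3063 in the constant-prior fit and 2989, 4133 and 3331 in the t-test. Counts at an unadjusted p given below for single classes are to be read against these.

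**Figure D1:**
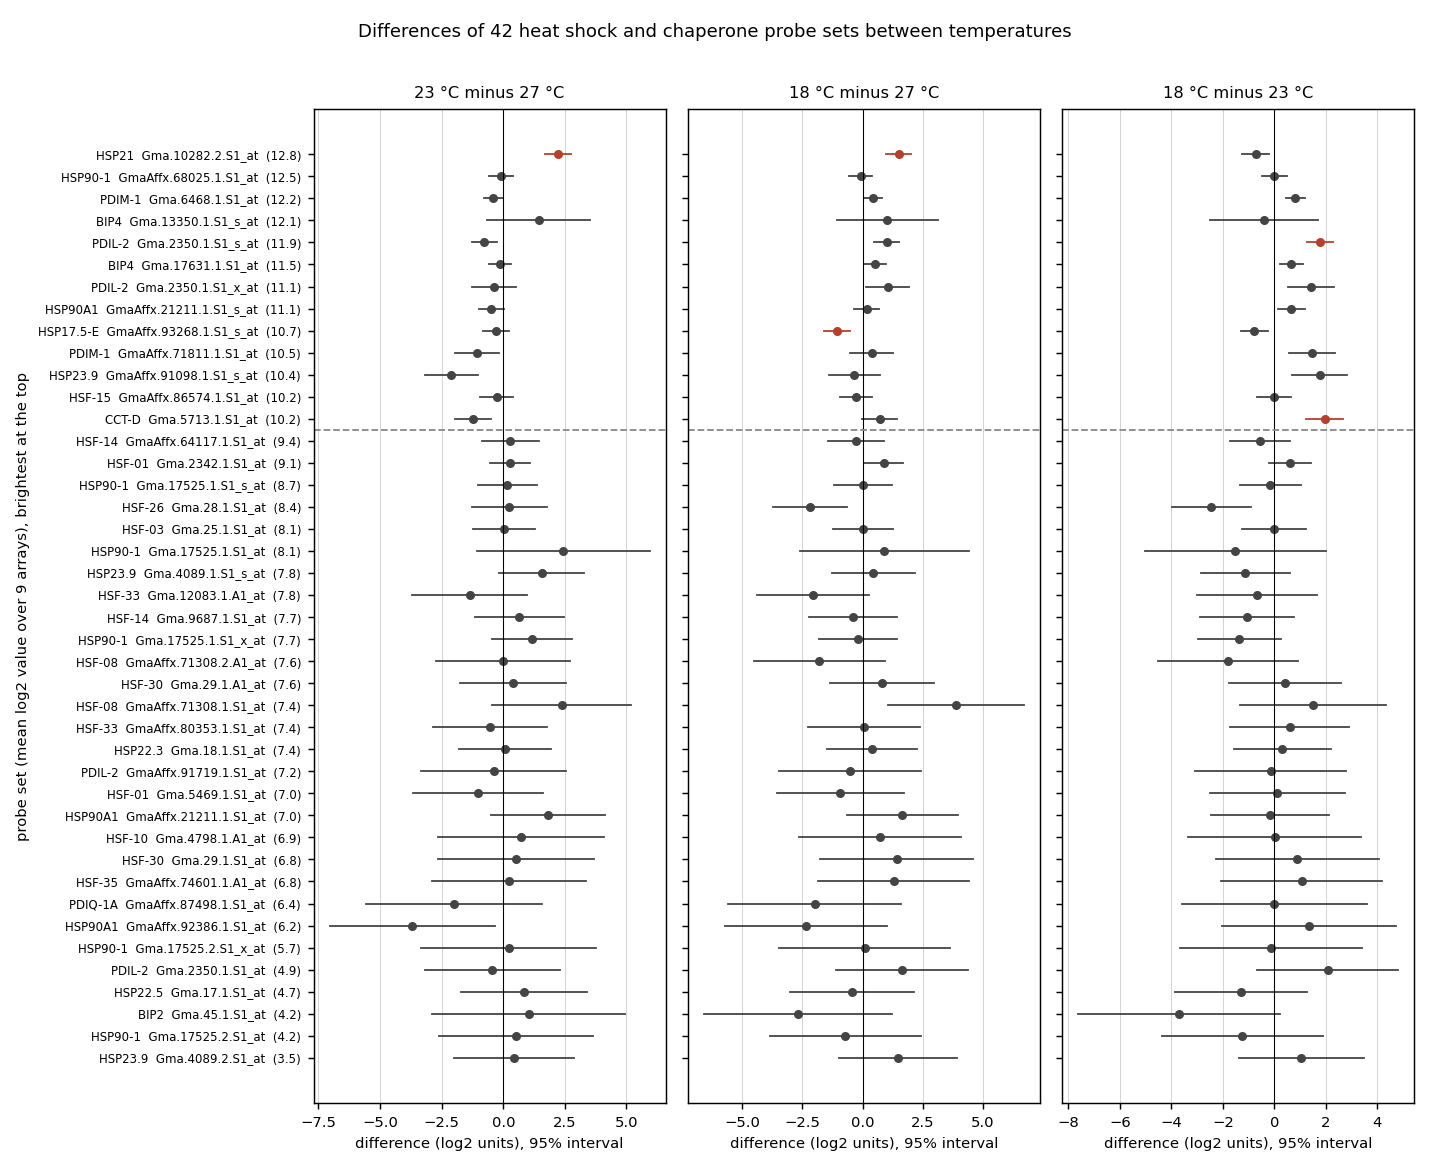
Difference in log2 value of each of the 42 members with its 95% interval, in 3 panels for 23 °C minus 27 °C, 18 °C minus 27 °C and 18 °C minus 23 °C (x axis, log2 units), ordered down the page by mean log2 value, with a dashed line at a mean of 10 and calls at adjusted p under 0.05 in red. The red points are HSP21 (2.23 and 1.50), HSP17.5-E (-1.07), PDIL-2 (1.76) and CCT-D (1.95), all above the dashed line, and the intervals widen below it.

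Over all 42 members, the median difference was 0.12 for 23 °C against 27 °C (24 higher, 18 lower), 0.13 for 18 °C against 27 °C (25 higher, 17 lower) and 0.01 for 18 °C against 23 °C (22 higher, 20 lower). The medians over all probe sets were -0.00, -0.06 and -0.05. The 3 values of one temperature lay wholly above or below those of the other in 11 members (26.2%) at 23 °C against 27 °C, in 12 (28.6%) at 18 °C against 27 °C and in 16 (38.1%) at 18 °C against 23 °C. Over all probe sets these shares were 14.8%, 18.9% and 16.0%. Because replicates were tighter at high signal, the 13 members with a mean of at least 10 are set beside the 7017 probe sets of that kind. Of the 13, 7.69%, 15.4% and 15.4% were called in the 3 comparisons, beside 3.63%, 9.21% and 4.28% of the 7017. The groups did not overlap in 7, 7 and 10 of the 13, beside 28.2%, 38.4% and 30.9% of the 7017. The 13 include HSP21, CCT-D and PDIL-2, which the study picked as changed on these arrays, so these shares are not independent evidence. With these 3 left out of the 42, the groups did not overlap in 20.5%, 23.1% and 33.3% of the other 39 members.

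The small heat shock proteins held all the calls against 27 °C, 1 gene higher at both lower temperatures and 1 lower at 18 °C. HSP21 is the small heat shock protein of the chloroplast, known in Arabidopsis for protecting the photosynthetic membranes in heat. Its probe set read 11.62, 11.16 and 11.88 at 27 °C, 13.84, 14.08 and 13.43 at 23 °C, and 12.98, 13.40 and 12.78 at 18 °C. All values at both lower temperatures lay above all those at 27 °C, and those at 18 °C lay wholly below those at 23 °C. HSP21 rose by 2.23 ± 0.24 at 23 °C (SE, 3 arrays per temperature, limma adjusted p = 0.00216) and by 1.50 ± 0.24 at 18 °C (limma adjusted p = 0.00814), both against 27 °C. Between 18 °C and 23 °C the difference of -0.73 ± 0.24 did not pass (limma adjusted p = 0.260, 95% interval -1.26 to -0.20 before adjustment). Both rises held in all 9 fits that left out 1 array (highest adjusted p 0.0151 and 0.0406), and were lost in the constant-prior limma fit (adjusted p = 0.154 and 0.208), as was every other call of a member.

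HSP17.5-E, a small heat shock protein of the cytosol in soybean, went the other way. Its probe set read 10.89, 11.18 and 11.37 at 27 °C, 10.65, 10.96 and 10.94 at 23 °C, and 10.21, 10.25 and 9.75 at 18 °C. The 3 values at 18 °C lay below all 6 others, while those at 23 °C overlapped those at 27 °C. HSP17.5-E fell by 1.07 ± 0.24 at 18 °C against 27 °C (limma adjusted p = 0.0470), with differences of -0.78 ± 0.24 at 18 °C against 23 °C (limma adjusted p = 0.221) and -0.29 ± 0.24 at 23 °C against 27 °C (limma adjusted p = 0.798). The call was at the threshold and was lost in each of the 9 fits without 1 array (adjusted p 0.0551 to 0.163) after centring the array medians (-0.95, adjusted p = 0.0721) and with the replicate number as a block (adjusted p = 0.0816). The difference stayed between -1.20 and -0.91 in all alternatives run.

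HSP23.9 was read by 3 probe sets whose differences did not share a sign. The probe set with a mean of 10.44, singled out after its values were seen, gave 11.65, 10.68 and 11.44 at 27 °C, 8.05, 9.51 and 9.88 at 23 °C, and 11.05, 10.21 and 11.48 at 18 °C. Its values at 23 °C lay below all the others, and those at 18 °C and 27 °C overlapped. The difference was -2.11 ± 0.49 for 23 °C against 27 °C (limma adjusted p = 0.0960) and 1.77 ± 0.49 for 18 °C against 23 °C (limma adjusted p = 0.156), so neither passed. The HSP23.9 probe set with a mean of 7.82 had its highest values at 23 °C instead (9.01, 8.49 and 8.64, against 7.52, 5.66 and 8.26 at 27 °C), a difference of 1.57 ± 0.79 (limma adjusted p = 0.588). The last of the 3 had a mean of 3.50 and differences of 0.42 and 1.47 for 23 °C and 18 °C against 27 °C. HSP22.3 and HSP22.5, with means of 7.36 and 4.72, gave differences from 27 °C of 0.07 and 0.85 at 23 °C and of 0.38 and -0.45 at 18 °C, none of which passed. Of the 7 small heat shock protein probe sets, then, 1 rose and none fell at 23 °C against 27 °C, and 1 rose and 1 fell at 18 °C against 27 °C.

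**Figure D2:**
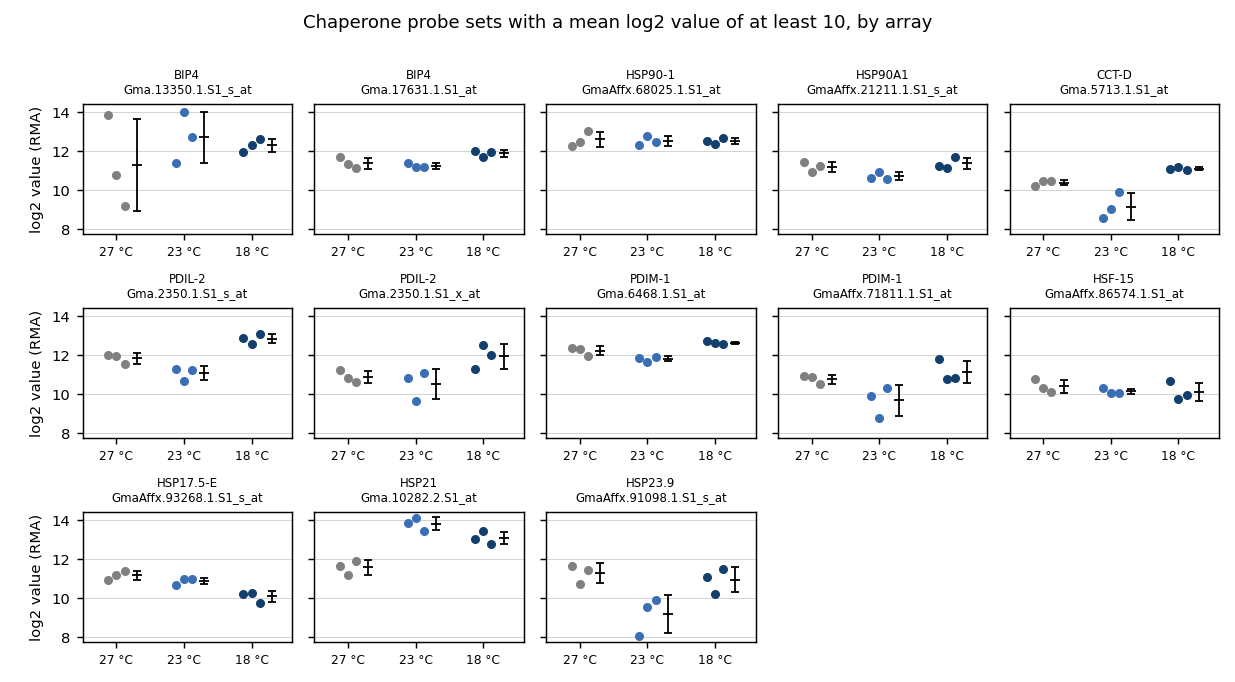
Log2 value (y axis, RMA) of the 13 members with a mean of at least 10, a panel each, at 27 °C, 23 °C and 18 °C (x axis), with 1 point per array and a bar for mean ± SD (3 arrays). HSP21 is highest at 23 °C (13.43 to 14.08), HSP17.5-E lowest at 18 °C (9.75 to 10.25), and CCT-D, PDIL-2 and PDIM-1 have their lowest mean at 23 °C and their highest at 18 °C. Levels are read within a panel, not between panels.

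Protein disulfide isomerases form and rearrange the disulfide bonds of proteins in the endoplasmic reticulum. Their differences from 27 °C were negative at 23 °C and mostly positive at 18 °C, and none of these passed the test. The 1 difference that passed was at 18 °C against 23 °C. The 7 probe sets stand for 3 gene names, 4 of them for PDIL-2 and 2 for PDIM-1, so they are not 7 separate observations. At 23 °C against 27 °C all 7 probe sets had a negative difference (median -0.44), 4 of them without overlap, and none passed (3 had an unadjusted p under 0.05 in the variance-trend fit, none in the constant-prior fit and 1 in the methods' t-test). At 18 °C against 23 °C 6 of the 7 had a positive difference (median 1.41), 4 without overlap, and 1 rose (4 with an unadjusted p under 0.05, 4 in the constant-prior fit and 2 in the t-test). At 18 °C against 27 °C 5 of the 7 were positive (median 0.41), 3 without overlap, and none passed (3 with an unadjusted p under 0.05, 1 in the constant-prior fit and 2 in the t-test). Over all probe sets, 18379 of 36578 differences were negative at 23 °C against 27 °C, 17420 were positive at 18 °C against 23 °C and 17296 were positive at 18 °C against 27 °C. Of all probe sets 14.8%, 16.0% and 18.9% did not overlap in these 3 comparisons in the order given, or 28.2%, 30.9% and 38.4% of those with a mean of at least 10.

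PDIL-2, described by the study as PDI-like 1-4, was the isomerase that rose. The probe set with a mean of 11.90 read 12.01, 11.95 and 11.50 at 27 °C, 11.29, 10.64 and 11.23 at 23 °C, and 12.84, 12.57 and 13.05 at 18 °C. The 3 temperatures did not overlap, with 23 °C lowest and 18 °C highest. It rose by 1.76 ± 0.23 at 18 °C against 23 °C (limma adjusted p = 0.00509), and the rise held in all 9 fits without 1 array (highest adjusted p 0.0316). Against 27 °C its differences were 1.00 ± 0.23 at 18 °C (limma adjusted p = 0.0552) and -0.77 ± 0.23 at 23 °C (limma adjusted p = 0.251). The difference at 18 °C against 27 °C passed after centring the array medians (1.12, adjusted p = 0.0389) and without replicate 2 at 23 °C (adjusted p = 0.0308).

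Another probe set of PDIL-2, with a mean of 11.10, shares its design number with the one above and was not counted as separate support. It read 11.22, 10.80 and 10.61 at 27 °C, 10.83, 9.62 and 11.09 at 23 °C, and 11.26, 12.52 and 11.99 at 18 °C. Its values at 18 °C lay above all the others, with differences of 1.05 ± 0.41 from 27 °C (limma adjusted p = 0.284) and 1.41 ± 0.41 from 23 °C (limma adjusted p = 0.177). The remaining PDIL-2 probe sets had means of 4.94 and 7.20, and their differences of 1.62 ± 1.24 and -0.53 ± 1.34 at 18 °C against 27 °C had opposite signs and wide intervals. The one with a mean of 4.94 also shares that design number.

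PDIM-1, another isomerase, was read by 2 probe sets with the same order of means. The one with a mean of 12.20 gave 12.36, 12.29 and 11.93 at 27 °C, 11.83, 11.65 and 11.89 at 23 °C, and 12.68, 12.60 and 12.54 at 18 °C. No 2 temperatures overlapped, but the lowest value at 27 °C stood only just above the highest at 23 °C. The difference of 0.82 ± 0.17 at 18 °C against 23 °C lay just outside the threshold (limma adjusted p = 0.0526), and it passed after centring the array medians (0.93, adjusted p = 0.0414). Against 27 °C this probe set differed by 0.41 ± 0.17 at 18 °C (limma adjusted p = 0.324) and by -0.40 ± 0.17 at 23 °C (limma adjusted p = 0.476). The other PDIM-1 probe set (mean 10.51), singled out after its values were seen, read 10.90, 10.84 and 10.49 at 27 °C, 9.90, 8.78 and 10.32 at 23 °C, and 11.79, 10.77 and 10.79 at 18 °C. Its values at 23 °C were the lowest without overlap, and it differed by 1.45 ± 0.41 between 18 °C and 23 °C (limma adjusted p = 0.162). PDIQ-1A, with a mean of 6.44, differed by -1.99 ± 1.63 at 23 °C and by -1.99 ± 1.63 at 18 °C, each against 27 °C and neither past the test (limma adjusted p = 0.798 and 0.697).

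CCT-D is the delta subunit of the chaperonin ring of the cytosol, which folds actin and tubulin among other proteins. Its probe set read 10.22, 10.43 and 10.47 at 27 °C, 8.54, 8.99 and 9.88 at 23 °C, and 11.07, 11.18 and 11.02 at 18 °C. The temperatures did not overlap, again with 23 °C lowest and 18 °C highest, and the arrays at 23 °C scattered more (SD 0.685, against 0.0807 at 18 °C and 0.136 at 27 °C). CCT-D rose by 1.95 ± 0.33 at 18 °C against 23 °C (limma adjusted p = 0.0212). Its differences from 27 °C were 0.72 ± 0.33 at 18 °C (limma adjusted p = 0.398) and -1.24 ± 0.33 at 23 °C (limma adjusted p = 0.173). The rise was lost without replicate 1, 2 or 3 at 18 °C (adjusted p = 0.0867, 0.0839 and 0.0706), without replicate 1 or 2 at 23 °C (0.0523 and 0.0642), and when only the 6 arrays compared were fitted (0.0739).

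BiP is the HSP70 of the endoplasmic reticulum and the partner of the isomerases there, and none of its 3 probe sets passed the test in any comparison. In the variance-trend fit 0, 1 and 1 of the 3 had an unadjusted p under 0.05 in the 3 comparisons, in the constant-prior fit none did, and in the methods' t-test 0, 0 and 1 did. The BIP4 probe set with a mean of 11.48 read 11.66, 11.32 and 11.10 at 27 °C, 11.37, 11.14 and 11.15 at 23 °C, and 11.99, 11.68 and 11.95 at 18 °C. The values at 18 °C lay just above all the others, with differences of 0.52 ± 0.20 from 27 °C (limma adjusted p = 0.300) and 0.65 ± 0.20 from 23 °C (limma adjusted p = 0.227). The other BIP4 probe set, with a mean of 12.08, read 13.83, 10.77 and 9.20 at 27 °C, 11.38, 14.01 and 12.69 at 23 °C, and 11.94, 12.31 and 12.59 at 18 °C. Replicates of 1 temperature differed there by up to several log2 units (SD 2.36 at 27 °C), the temperatures overlapped, and the difference of 1.01 at 18 °C against 27 °C had a 95% interval of -1.08 to 3.11. BIP2 had a mean of 4.23 and a value of -2.91 on replicate 2 at 18 °C, against 4.40 and 4.81 on the other arrays at that temperature.

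HSP90 proteins fold signalling proteins such as kinases and receptors in the cytosol, and no HSP90 probe set passed the test. Of the 9, 1, 0 and 1 had an unadjusted p under 0.05 in the variance-trend fit for 23 °C against 27 °C, 18 °C against 27 °C and 18 °C against 23 °C, as did 1, 0 and 1 in the constant-prior fit and 0, 0 and 2 in the methods' t-test. The HSP90-1 probe set with a mean of 12.53 read 12.26, 12.46 and 13.03 at 27 °C, 12.30, 12.76 and 12.43 at 23 °C, and 12.49, 12.36 and 12.66 at 18 °C. The temperatures overlapped throughout. With an SE of 0.22, the 95% interval of its difference ran from -0.56 to 0.39 for both 23 °C and 18 °C against 27 °C (-0.09 and -0.08). The other 5 HSP90-1 probe sets had means of 4.17 to 8.70 and differences at 18 °C against 27 °C of -0.72 to 0.91. The HSP90A1 probe set with a mean of 11.08 averaged 11.18 ± 0.25 at 27 °C, 10.69 ± 0.20 at 23 °C and 11.35 ± 0.30 at 18 °C (SD, 3 arrays). Its values at 23 °C lay below all the others, but their highest (10.922) all but touched the lowest at 27 °C (10.925). This probe set differed by 0.66 ± 0.23 for 18 °C against 23 °C (limma adjusted p = 0.309) and by -0.49 ± 0.23 for 23 °C against 27 °C (limma adjusted p = 0.562), neither past the test. The remaining 2 HSP90A1 probe sets had means of 6.22 and 7.00 and opposite differences at 18 °C against 27 °C (-2.34 and 1.65).

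Heat shock factors made up the largest class, and 14 of its 15 probe sets had a mean under 10. None passed the test in any comparison, and 0, 3 and 1 had an unadjusted p under 0.05 in both limma fits for 23 °C against 27 °C, 18 °C against 27 °C and 18 °C against 23 °C (0, 4 and 2 in the methods' t-test). At 18 °C against 27 °C 8 differences were positive and 7 negative (median 0.03), and at 23 °C against 27 °C 11 were positive and 4 negative (median 0.25), all with overlapping values. HSF-15, the one with a mean of at least 10, read 10.74, 10.32 and 10.09 at 27 °C, 10.28, 10.03 and 10.04 at 23 °C, and 10.64, 9.76 and 9.94 at 18 °C. These values overlapped, and the difference at 18 °C against 27 °C was -0.27 with a 95% interval of -0.94 to 0.39.

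Some dimmer heat shock factors were singled out after their values were seen, because 18 °C and 27 °C did not overlap in them. HSF-26 read 8.76, 9.21 and 9.13 at 27 °C, 8.40, 10.31 and 9.15 at 23 °C, and 5.80, 8.10 and 6.63 at 18 °C. Its values at 18 °C were the lowest, with differences of -2.19 ± 0.70 from 27 °C (limma adjusted p = 0.171) and -2.44 ± 0.70 from 23 °C (limma adjusted p = 0.172). The HSF-33 probe set with a mean of 7.80 differed by -2.04 ± 1.06 between 18 °C and 27 °C (limma adjusted p = 0.470), while its other probe set gave 0.06. The HSF-08 probe set with a mean of 7.44 read 9.18, 9.17 and 9.33 at 18 °C, against 4.38, 4.35 and 7.35 at 27 °C, a difference of 3.87 ± 1.29 (limma adjusted p = 0.193). At 23 °C that probe set spread over 8.03, 4.95 and 10.20, and the other probe set of HSF-08 had a difference of the opposite sign at 18 °C against 27 °C (-1.80 ± 1.24). HSF-01 showed the same disagreement, at 0.87 ± 0.37 on the probe set with a mean of 9.09 (limma adjusted p = 0.348) and -0.92 ± 1.20 on that with a mean of 7.04. HSF-03, HSF-10, HSF-14, HSF-30 and HSF-35 had differences of -0.40 to 1.41 at 18 °C against 27 °C, with overlapping values.

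**Figure D3:**
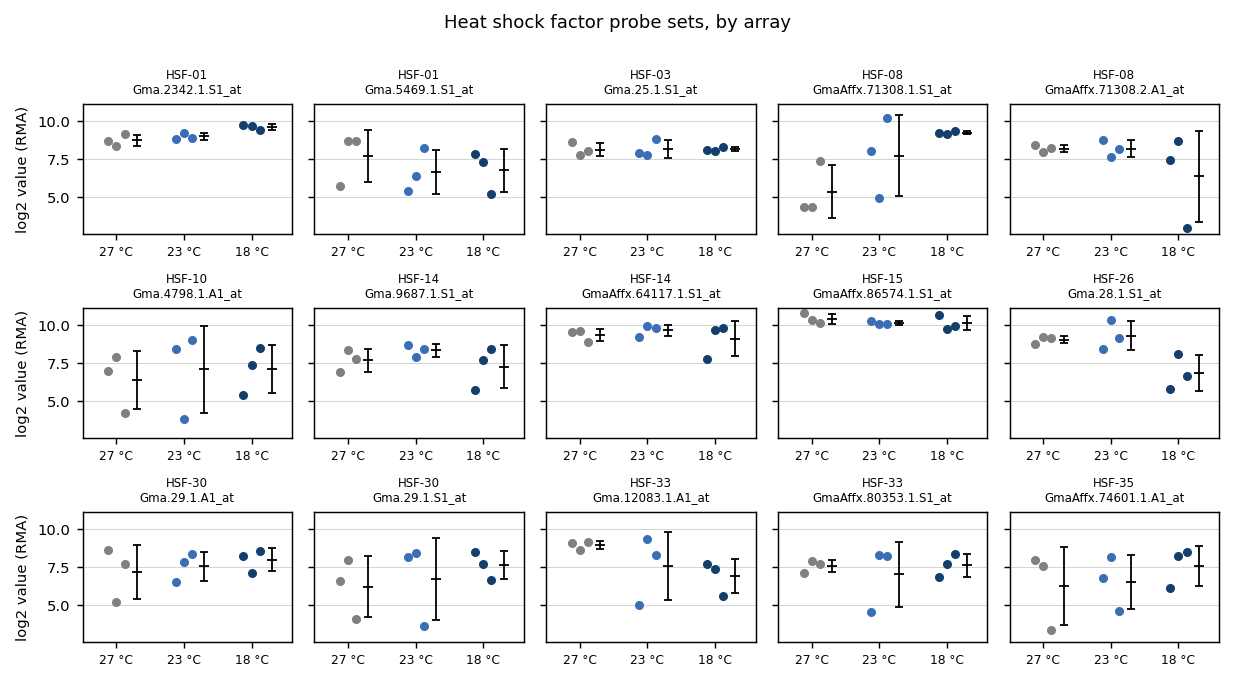
Log2 value (y axis, RMA) of the 15 heat shock factor probe sets, a panel each, at 27 °C, 23 °C and 18 °C (x axis), with 1 point per array and a bar for mean ± SD (3 arrays). HSF-15 and HSF-03 overlap at all temperatures, HSF-26 is lowest at 18 °C (5.80 to 8.10), and the 2 probe sets of HSF-08, as of HSF-01, differ from 27 °C with opposite signs at 18 °C.

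Across classes, the lowest mean at 23 °C with the highest at 18 °C recurred among the members of higher signal. This order of means was found in 7 of the 13 members with a mean of at least 10 (53.8%), namely CCT-D, both probe sets of PDIM-1, the PDIL-2 probe sets with means of 11.90 and 11.10, and the BIP4 and HSP90A1 probe sets with means of 11.48 and 11.08. Over all probe sets with such a mean the order was found in 1200 of 7017 (17.1%). Among the 29 dimmer members it was found in 2. The median difference of the 13 was -0.36 at 23 °C against 27 °C (2 positive, 11 negative), 0.41 at 18 °C against 27 °C (9 positive, 4 negative) and 0.66 at 18 °C against 23 °C (9 positive, 4 negative), beside 0.01, 0.05 and 0.04 over the 7017. Only PDIL-2 and CCT-D passed the test in any comparison among the 7, these probe sets share their 23 °C arrays, and 2 of the names stand for 4 of the probe sets, so they are not 7 separate observations. The orders were noticed in the data and were not tested. CCT-D and the PDIL-2 probe set with a mean of 11.90 were also among those the study picked as changed on these arrays. HSP21 and HSP17.5-E did not follow this order.

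Other folding genes were few under a symbol of their own. Helpers of chaperones found by symbol were RAR1-1 (2 probe sets) and HOP1, which work with HSP90, BAG6A, which binds HSP70, and the cyclophilin CYP1. None of these 5 probe sets passed in any comparison, none had an unadjusted p under 0.05 in either limma fit or the methods' t-test, and all overlapped between temperatures. Their median differences were -0.14, 0.06 and 0.19 at 23 °C against 27 °C, 18 °C against 27 °C and 18 °C against 23 °C.

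The study's descriptions named folding or chaperones for 17 probe sets, 3 of them members (HSP21, PDIL-2 and CCT-D) and 14 not. The study picked these as changed on the same arrays, so their counts describe the choice and carry no independent weight. At 18 °C against 27 °C, 4 of the 17 rose, 2 fell and 11 did not pass (median 0.72), at 23 °C against 27 °C only HSP21 passed, and at 18 °C against 23 °C 5 rose and 1 fell (median 0.97), PDIL-2 and CCT-D among the risers. The risers among non-members at 18 °C were 3 probe sets of a disulfide isomerase-like protein that the study calls a thioredoxin family protein. The one with the lowest adjusted p read 13.82, 13.94 and 13.80 at 18 °C, against 12.60, 12.44 and 12.60 at 27 °C, with 12.70, 12.45 and 12.52 at 23 °C. The values at 18 °C stood clear of the other 6, which overlapped. This probe set rose by 1.31 ± 0.14 at 18 °C against 27 °C (limma adjusted p = 0.000716), and the other 2 of the same protein rose by 1.23 ± 0.14 and 1.52 ± 0.30 (limma adjusted p = 0.00132 and 0.0249). The probe set with 1.23 shares its design number with that with 1.31, and the 3 are not separate support. At 23 °C the 3 probe sets differed from 27 °C by 0.01, 0.02 and 0.10, beside -0.77 for PDIL-2, none of these passed, and the contrast between the genes was not tested.

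A probe set that the study describes as an HSP20-like chaperone rose by 0.97 ± 0.14 at 18 °C against 23 °C (limma adjusted p = 0.00893). Its second name in the study's annotation is a zinc finger CCCH domain protein, so its identity is uncertain. FK506-binding protein 12, a peptidyl-prolyl isomerase, fell by 0.49 ± 0.11 at 18 °C against 27 °C (limma adjusted p = 0.0476). A chaperone that assembles the ubiquinol-cytochrome c reductase of mitochondria fell by 4.85 ± 0.85 (limma adjusted p = 0.0132). The assembly chaperone read 3.31, 3.38 and 3.66 at 18 °C, against 8.81, 8.08 and 8.00 at 27 °C, so its 18 °C values stood in the dim range. The 5 DnaJ-type probe sets, partners of HSP70, differed by -0.87 to 5.36 at 18 °C against 27 °C, 3 of them positive, and none passed (limma adjusted p 0.0618 to 0.195). The largest difference, 5.36 ± 1.31, came from a probe set in the dim range at 27 °C (2.63, 2.35 and 3.71). That probe set spread from 3.22 to 8.28 at 23 °C.

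**Figure D4:**
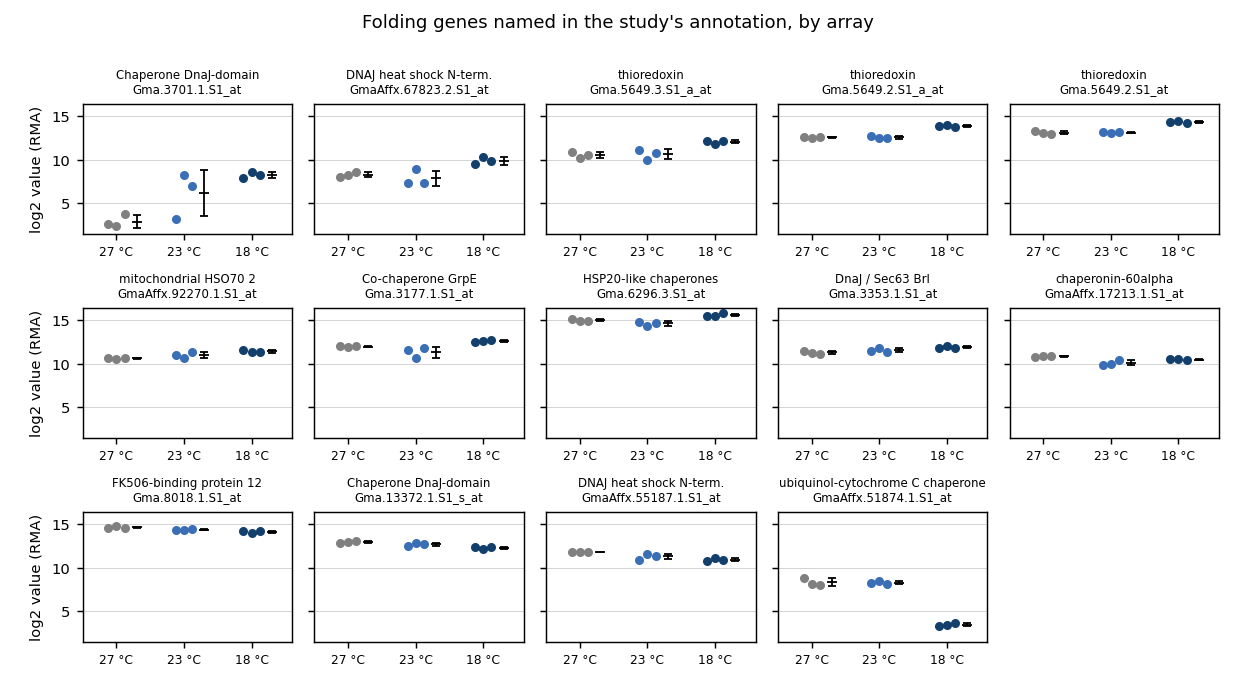
Log2 value (y axis, RMA) of the 14 folding and chaperone probe sets that the study described and that carry no member symbol, a panel each titled with the study's description, at 27 °C, 23 °C and 18 °C (x axis), with 1 point per array and a bar for mean ± SD (3 arrays). The 3 thioredoxin family panels stand higher at 18 °C (in one of them 13.80 to 13.94, against 12.44 to 12.60 at 27 °C), and the ubiquinol-cytochrome c chaperone stands lower there (3.31 to 3.66).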

How the data were processed

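The authors hybridised leaf RNA to the soybean array, dropped probe pairs that bound the plant's own genomic DNA weakly, and deposited log2 values from RMA. The study picked 1 of several thresholds for its own comparisons, and no source used here says whether that one made the deposited table, or names the RMA version or scan batches. The column of the genomic DNA array held 0 values and gave no background filter, so all 36578 probe sets were tested. Symbols came from the platform annotation (8365 probe sets with 1 symbol, 356 with several and 27857 with none).

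Temperatures were compared with limma 3.58.1 in R 4.3.3 (trend and robust set, 9 arrays in 1 model with a mean per temperature, 6 residual degrees of freedom, Benjamini-Hochberg), and the script was tested on simulated data. The number of arrays limits the precision. The limma p-values, SEs and intervals reflect how far leaflets of the 3 plants scatter, moderated towards the variance expected from other probe sets. They are not the scatter of a single probe set alone. The labels do not tie replicate numbers to plants and differ on the days at each temperature. The members, lists and fit were chosen with earlier results of these data known.

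Values on all arrays are given for members called by either limma fit, for HSP21, for the member with the highest mean of each class, and for members with a mean of at least 10 whose values at 18 °C and 27 °C did not overlap. Alternatives were the constant-prior fit, the methods' t-test, other scalings, a filter on the mean, a replicate block, 6 arrays only and leaving out each array. A soybean probe set can bind several members of a gene family. The study's own comparison values were not used.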

Additional observations from a re-analysis of the deposited data

How the results depend on the processing

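At 23 °C against 27 °C, 18 °C against 27 °C and 18 °C against 23 °C the members called numbered 1, 2 and 2. The same variance-trend fit called 284, 778 and 345 of all probe sets. The constant-prior limma fit called 0, 0 and 0 of the members, and the methods' t-test 0, 0 and 0 both at an adjusted p under 0.05 and at the methods' threshold of 0.01 with more than 2-fold. Over the whole table the constant-prior fit called 1, 38 and 2 probe sets. The t-test called 1, 0 and 3 at an adjusted p under 0.05 and 0, 0 and 0 at the methods' threshold. With only probe sets of a mean of at least 10, which are fewer to adjust over and have tighter replicates, 3, 3 and 5 members and 524, 1322 and 798 probe sets were called. The members added at 23 °C against 27 °C were CCT-D and HSP23.9 (both lower), at 18 °C against 27 °C PDIL-2 (higher), and at 18 °C against 23 °C both probe sets of PDIM-1 and HSP23.9 (all higher). With only the 6 arrays compared, 1, 1 and 1 members and 159, 672 and 160 probe sets were called. Leaving out 1 array gave 1 to 1, 1 to 2 and 1 to 2 members, and 96 to 248, 387 to 857 and 109 to 265 probe sets.

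Every plant was sampled at all temperatures, but the labels do not say which number is which plant. The deviations did not settle whether the numbers follow the plants. Deviations of same-numbered arrays from their temperature means correlated at -0.0128 to 0.0128 across all probe sets and, across those with a mean of at least 10, at -0.0327 to 0.207, with 1 of 9 pairs over 0.1 (replicate 2 at 18 °C with replicate 2 at 23 °C). With a replicate block 1, 1 and 2 members and 230, 698 and 282 probe sets were called, HSP17.5-E being the call lost (adjusted p = 0.0816).

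Centring the array medians called 1, 2 and 3 members, with PDIL-2 in place of HSP17.5-E at 18 °C against 27 °C, and quantile normalisation 1, 2 and 2. Over the whole table centring called 257, 848 and 391 probe sets and quantile normalisation 300, 745 and 350. Centring moved the higher and lower calls over the whole table at 18 °C against 27 °C to 613 and 235, and quantile normalisation to 390 and 355, where the values as deposited gave 469 and 309. No member named in the text changed sign past the test under any of these alternatives. Differences of members with a mean under 10 were limited by their replicate SD.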
